A study of Mus musculus with 2 samples.

Results

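The cytochrome P450 genes of families 1 to 4 were examined in the adrenal gland of B6CASTF1/J females aged 2 months, a first-generation cross of the C57BL/6J and CAST strains. Members were protein-coding genes whose symbol is Cyp, a family digit from 1 to 4, a subfamily letter and a number, and 75 of the 55536 annotated genes met this rule. The series held 1 group of 2 libraries of total RNA from whole glands, labelled biological replicates 1 and 2 and called animal 1 and animal 2 here. No treatment or genotype contrast was labelled. The labels give the same animal number in both library descriptions and different numbers in the biosample descriptions, so the spread between libraries may be partly technical.

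Cytochromes P450 are heme enzymes that insert an oxygen atom from molecular oxygen into a substrate, with electrons passed from P450 reductase and, for some reactions, from cytochrome b5. Families 1 to 3 oxidise drugs, plant compounds and other foreign chemicals in the liver and at body surfaces, and family 4 oxidises fatty acids, prostaglandins and leukotrienes. In the adrenal cortex the P450 enzymes best known are those of other families, which make steroid hormones. A codon for the cysteine that binds the heme iron lies near the end of each coding sequence. It is shown in capitals within 30 coding bases, 5′ to 3′, for the member of highest level in each family and for Cyp2e1, since this stretch is what joins such different enzymes into 1 superfamily.
Cyp1b1: ttctcagtgggcaaacggaggTGCatcggt
Cyp2f2: ttttcggctggacgtcgactgTGTctggga
Cyp2e1: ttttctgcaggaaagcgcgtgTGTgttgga
Cyp3a11: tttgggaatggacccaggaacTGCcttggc
Cyp4f13: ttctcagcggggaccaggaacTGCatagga
The cysteine was codon 436 of 491 in Cyp2f2, codon 470 of 543 in Cyp1b1 and codon 443 of 504 in Cyp3a11. A search for the spacing of conserved codons around it, in the longest GENCODE M21 coding sequence of each gene, found such a stretch in 72 of the 75 members. Cysteine was written as TGC in 43 of them and as TGT in 29.

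Most members were at low levels, and 1 gene made up most of the families' RNA. At least 1 TPM (a level scaled for transcript length, with a fixed sum per library) was reached in both libraries by 21 of 75 members, or 28%, against 53.5% of nuclear protein-coding genes. Counts were 0 in both libraries for 10 members, or 13.3%, against 21.1% of nuclear protein-coding genes. By mean level, in classes chosen after the values were seen, 6 members stood at 10 TPM or more, 3 at 5 to 10 TPM, 18 at 1 to 5 TPM and 25 at 0.1 to 1 TPM. A further 13 were above 0 but under 0.1 TPM, and the remaining 10 were at 0. A count of 0 allows up to 3 counts, or 0.0877 CPM (counts scaled by the library total) in animal 1 and 0.0834 in animal 2. With TPM rescaled over nuclear protein-coding genes alone, 38 members, or 50.7%, reached 1 TPM in both libraries, against 60.6% of those genes. Before rescaling, those genes held 32.1% (animal 1) and 36.0% (animal 2) of the TPM of annotated genes.

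All members together had a sum of 492 TPM in animal 1, against 555 TPM in animal 2. These sums were 0.155% and 0.156% of nuclear protein-coding TPM. Cyp2f2 alone held 60.4% of the sum. Without Cyp2f2 the other 74 members had a sum of 205 TPM in animal 1, against 210.3 TPM in animal 2. As shares of nuclear protein-coding TPM these were 0.0645% in animal 1 and 0.0590% in animal 2, so the direction turned. Protein-coding P450 genes of other families, 18 in all, which include those of steroid synthesis, summed to 2.48% ± 0.0187 of nuclear protein-coding TPM (SD, n = 2), so families 1 to 4 were a small part of the gland's P450 RNA. Family 2 summed to 448 ± 46.0 TPM over 48 genes and family 4 to 57.7 ± 2.81 TPM over 17 genes. Family 1 summed to 11.6 ± 0.721 TPM over 3 genes, and family 3 to 6.00 ± 3.87 TPM over 7 genes.

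**Figure D1:**
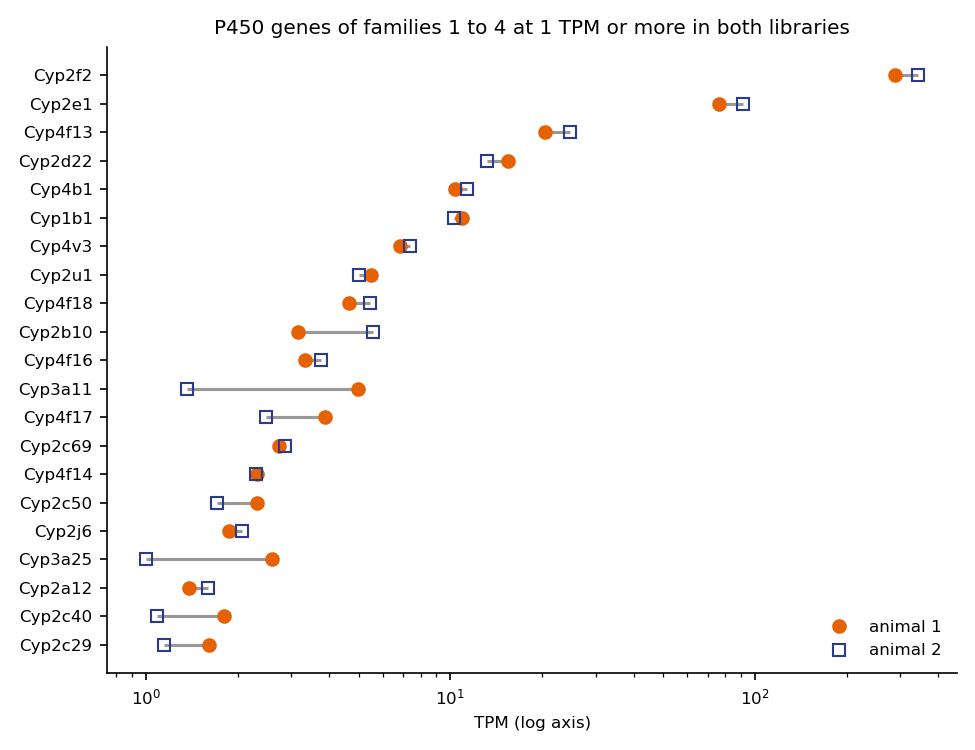
TPM on a log axis for the 21 members at 1 TPM or more in both libraries, ordered by mean level, with a filled circle for animal 1, an open square for animal 2 and a line between them. Cyp2f2 lies alone at 287 and 344 TPM, Cyp2e1 follows at 76.5 and 91.6 TPM, and the widest gap between the animals is that of Cyp3a11 at 4.99 and 1.37 TPM.

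Libraries held 34517566 (animal 1) and 36234838 (animal 2) expected counts, of which 34203664 and 35959484 fell on annotated genes. Ratios between the animals come from expected counts scaled by the trimmed mean of M-values, for genes with a mean of at least 10 counts. Their 95% exact Clopper-Pearson intervals hold the error of counting alone, and copies made by PCR are not separate molecules. No p-value was computed, because with 2 libraries the smallest value that a two-sided exact sign test can give is p = 0.5. In bulk tissue, fewer cells of a type and less RNA per cell cannot be told apart.

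Family 1 has 3 members in the mouse, all targets of the aryl hydrocarbon receptor, which binds dioxin and plant indoles. Cyp1b1 (ENSMUSG00000024087.4), which hydroxylates estradiol and polycyclic hydrocarbons, was the only one at 1 TPM in both libraries, with 10.9 TPM in animal 1 and 10.3 TPM in animal 2. Its scaled counts were 1.16-fold higher in animal 1 (95% interval 1.08 to 1.24). Scaling to the ERCC spike-ins moves the log2 ratio of every gene by 0.20 toward animal 2, which put Cyp1b1 at -0.0048 and the median of all genes at 0.19. Cyp1a2, the caffeine-oxidising enzyme of liver, had 0.98 TPM in animal 1 and 0.56 TPM in animal 2, and was 1.85-fold higher in animal 1 (1.22 to 2.93). Cyp1a1, which is induced in many tissues on receptor activation, was low, at 0.18 TPM in animal 1 and 0.21 TPM in animal 2, from 16.2 and 17.9 counts.

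Within family 2, Cyp2f2 (ENSMUSG00000052974.8), the enzyme that activates naphthalene in airway club cells, reached 287 TPM in animal 1 and 344 TPM in animal 2, from 17622 and 20055 counts. It ranked 119 among nuclear protein-coding genes by mean level. Animal 2 was 1.13-fold higher (1.10 to 1.15). Of 4 airway epithelial markers, Scgb1a1, Scgb3a2 and Sftpb were at 0 counts in both libraries and Sftpc was at 1.28 TPM in animal 1 and 1.27 TPM in animal 2. Which cells the Cyp2f2 reads came from was not tested. An antisense model within the gene, Gm15883, was at 0.09 TPM in animal 1 and 0.17 TPM in animal 2. Whether counting used strand is stated neither in the labels nor in the file headers.

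Cyp2e1 (ENSMUSG00000025479.9), which oxidises ethanol, acetone and paracetamol, was second at 76.5 TPM in animal 1 and 91.6 TPM in animal 2. It was 1.13-fold higher in animal 2 (1.08 to 1.17). Cyp2d22 (ENSMUSG00000061740.8), the mouse gene often set beside human CYP2D6, had 15.5 TPM in animal 1 and 13.2 TPM in animal 2. Its counts gave a ratio within counting error, with animal 2 1.01-fold higher (0.929 to 1.10).

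Cyp2u1, a fatty acid hydroxylase, stood at 5.48 TPM in animal 1 and 5.01 TPM in animal 2. Cyp2b10, the main target of the constitutive androstane receptor in liver, stood at 3.15 TPM in animal 1 and 5.57 TPM in animal 2. It had the largest ratio toward animal 2 among the 45 members with a ratio, 1.62-fold (1.36 to 1.94). All 6 brown adipocyte markers were also higher in animal 2, by a median of 1.96-fold, with summed levels of 653 TPM in animal 1 and 1270.4 TPM in animal 2 and none at 0. Their part in the Cyp2b10 difference was not tested. Cyp2j6, an epoxygenase of arachidonic acid, stood at 1.87 TPM in animal 1 and 2.07 TPM in animal 2, and Cyp2a12 at 1.39 TPM in animal 1 and 1.60 TPM in animal 2. Cyp2r1, the vitamin D 25-hydroxylase, was low, at 0.60 TPM in animal 1 and 0.48 TPM in animal 2, from 28 and 25 counts.

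The Cyp2c subfamily, which makes epoxides of arachidonic acid and clears drugs in liver, has 15 members here. They had a sum of 15.2 TPM in animal 1, against 10.4 TPM in animal 2. Cyp2c69 led with 2.73 TPM in animal 1 and 2.86 TPM in animal 2, and these did not differ beyond counting error. Cyp2c50 had 2.31 TPM in animal 1 and 1.71 TPM in animal 2, Cyp2c40 had 1.81 and 1.09 TPM, and Cyp2c29 had 1.61 and 1.15 TPM. Cyp2c37 had 2.12 TPM in animal 1 and 0.76 TPM in animal 2. All 10 Cyp2c members with a ratio of scaled counts were higher in animal 1, against 52.1% of all genes with a ratio, by 1.02-fold to 2.96-fold, with a median of 1.69-fold. For Cyp2c69, the lowest of these, the log2 ratio turned from -0.03 to 0.07 as a ratio of TPM and to 0.17 with spike-in scaling. The interval left out equality toward animal 1 for 8 of the 10, against 23.3% of all genes. These intervals do not hold the sharing of reads among alike members, described below. Cyp2c40 and Cyp2c67, both among the 8, had much of it, so the 8 are not independent. The other 5 Cyp2c members had too few counts, 2 of them 0 in both libraries.

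Family 3, whose enzymes are the main drug oxidases of liver and gut, had the largest median ratio of the 4 families, 2.29-fold higher in animal 1. Cyp3a11 (ENSMUSG00000056035.8), the mouse gene most like human CYP3A4 in liver use, had 4.99 TPM in animal 1 and 1.37 TPM in animal 2, from 392 and 102 counts. It was 3.88-fold higher in animal 1 (3.12 to 4.88). Cyp3a25 had 2.59 TPM in animal 1 and 1.00 TPM in animal 2, and was 2.79-fold higher in animal 1 (2.09 to 3.81). Cyp3a13 was 1.79-fold higher in animal 1 (1.00 to 3.36), and Cyp3a44 1.22-fold (0.722 to 2.10). All 4 members of the family with a ratio were higher in animal 1, against 52.1% of all genes, and the other 3 had under 10 counts. For Cyp3a44 the log2 ratio turned from -0.28 to 0.03 in the second deposited quantification. Cyp3a41b, a family 3 gene that the naming rule left out, had 0 counts in animal 1 and 24.5 in animal 2.

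In family 4, 6 of 10 members with a ratio were higher in animal 1, near the 52.1% of all genes, and the median was 1.08-fold. Cyp4f13 (ENSMUSG00000024055.15), of the subfamily that hydroxylates leukotrienes and long-chain fatty acids, had 20.5 TPM in animal 1 and 24.7 TPM in animal 2, and was 1.24-fold higher in animal 2 (1.13 to 1.37). Cyp4b1, which activates ipomeanol and hydroxylates fatty acids, had 10.4 TPM in animal 1 and 11.3 TPM in animal 2. Cyp4v3, the counterpart of the human gene behind Bietti crystalline dystrophy, had 6.81 TPM in animal 1 and 7.37 TPM in animal 2. Both ratios of these genes lay within counting error.

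Among the other Cyp4f genes, Cyp4f18 had 4.63 TPM in animal 1 and 5.46 TPM in animal 2, and was 1.19-fold higher in animal 2 (1.00 to 1.42). Its gene model overlaps Zfp961 on the opposite strand, which was at 6.48 TPM in animal 1 and 9.03 TPM in animal 2, so reads of both may not be told apart. Cyp4f16 had 3.32 TPM in animal 1 and 3.76 TPM in animal 2, Cyp4f17 had 3.87 and 2.49 TPM, and Cyp4f14 had 2.32 and 2.30 TPM. Of these only Cyp4f17 differed beyond counting error, 1.40-fold higher in animal 1 (1.13 to 1.74). The peroxisome proliferator targets Cyp4a10 and Cyp4a14 were low. Cyp4a10 had 1.16 TPM in animal 1 and 0.89 TPM in animal 2, and Cyp4a14 had 0.90 and 0.38 TPM.

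Across the 45 members that averaged 10 counts or more, the difference between the animals leaned toward animal 1. It was higher there for 33 members, or 73.3%, against 52.1% of the 17308 genes under the same filter. Over 2-fold higher in animal 1 were 6 members, or 13.3%, against 2.61% of all genes, and over 2-fold higher in animal 2 were 0 members, against 2.68% of all genes. The interval left out equality toward animal 1 for 19 members, or 42.2%, against 23.3% of all genes, and toward animal 2 for 5 members, or 11.1%, against 21.6% of all genes. The median member was 1.27-fold higher in animal 1, and the median of all genes was 1.01-fold. The 6 members over 2-fold were Cyp3a11, Cyp2c37, Cyp3a25, Cyp2c67, Cyp2d10 and Cyp2a4. Just inside that threshold lay Cyp2a4 at 2.01-fold, and just outside it Cyp2c54 at 1.96-fold. Scaling to the ERCC spike-ins moved every log2 ratio by 0.20 toward animal 2 and with it the median of all genes, to 0.19. Under that scaling 27 members were higher in animal 1, or 60%, against 26.8% of all genes, and 3 were over 2-fold higher, or 6.67%, against 1.73% of all genes.

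**Figure D2:**
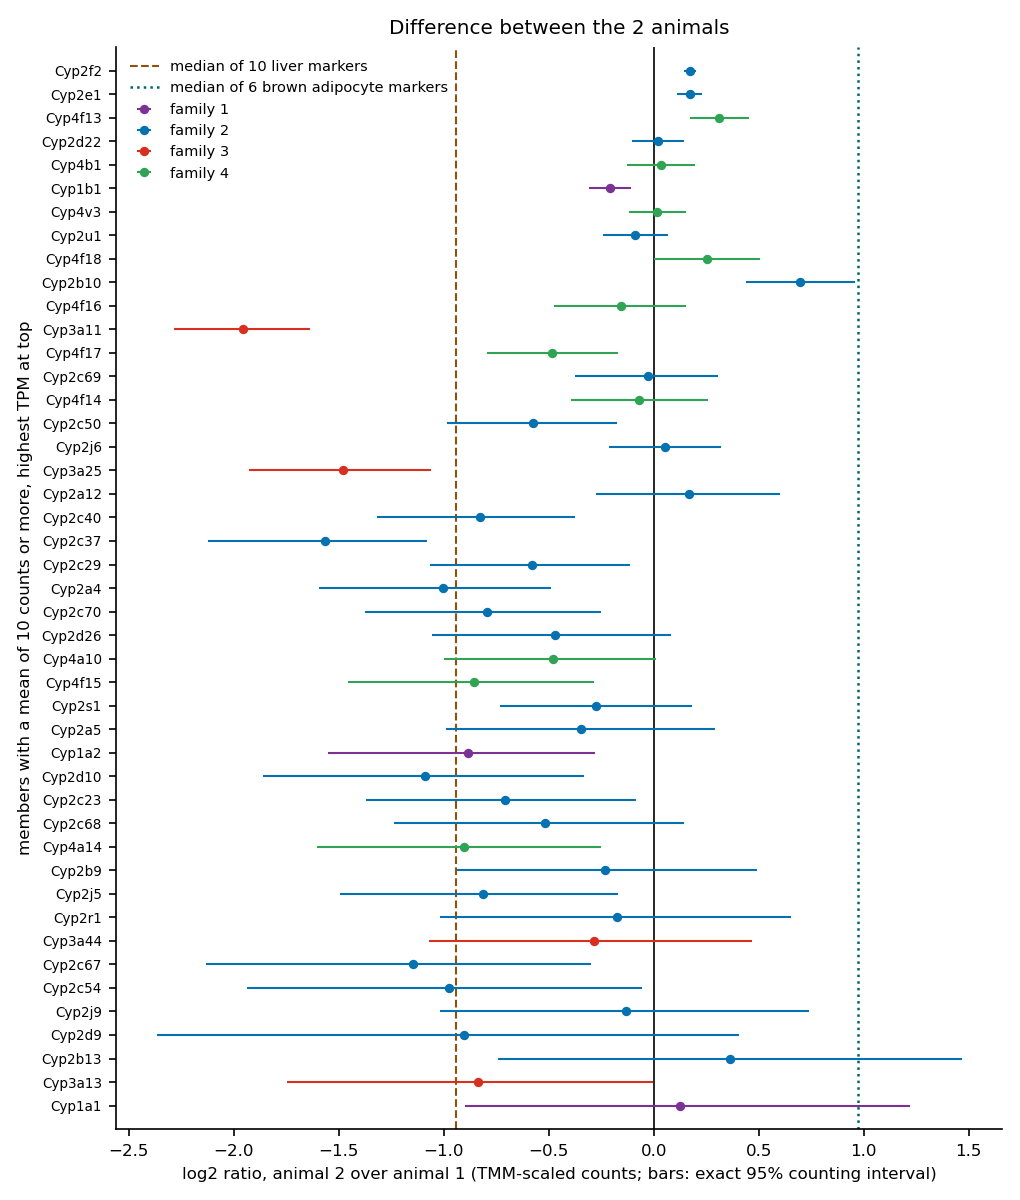
Log2 ratio of animal 2 over animal 1 for the 45 members averaging 10 counts or more, from highest mean TPM at the top, coloured by family, with bars for the exact 95% counting interval. Values left of 0 are higher in animal 1: they include all 4 members of family 3, with Cyp3a11 farthest left, and, near the top, Cyp1b1 and Cyp2u1. The dashed line is the median of the liver markers, 1.92-fold higher in animal 1. The dotted line is the median of the brown adipocyte markers, 1.96-fold higher in animal 2.

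The direction of the ratio went with the count. In members with 10 to 100 counts, a split chosen after the values were seen, 24 of 27 were higher in animal 1, or 88.9%, against 51.4% of all genes in that range. Over 2-fold higher in animal 1 were 4 of these 27, or 14.8%, against 6.93% of all genes. Their median was 1.64-fold. In the 18 members with at least 100 counts, 9 were higher in animal 1, the median was 1.01-fold, and 2 were over 2-fold higher in animal 1, or 11.1%, against 0.789% of all genes. Among all genes the median was 1.01-fold higher in animal 1 in both count ranges. By level, 1 of 6 members at 10 TPM or more was higher in animal 1, 1 of 3 at 5 to 10 TPM, 15 of 18 at 1 to 5 TPM and 16 of 18 with a ratio at 0.1 to 1 TPM. The share of all genes higher in animal 1 was not computed for these level classes or for genes with at least 100 counts. Across the 45 members, Spearman's rho of mean TPM with the log2 ratio of animal 2 over animal 1 was 0.418 and Pearson's r on log2 TPM was 0.384. This is a description across genes of 1 pair of libraries, and genes are not independent replicates.

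**Figure D3:**
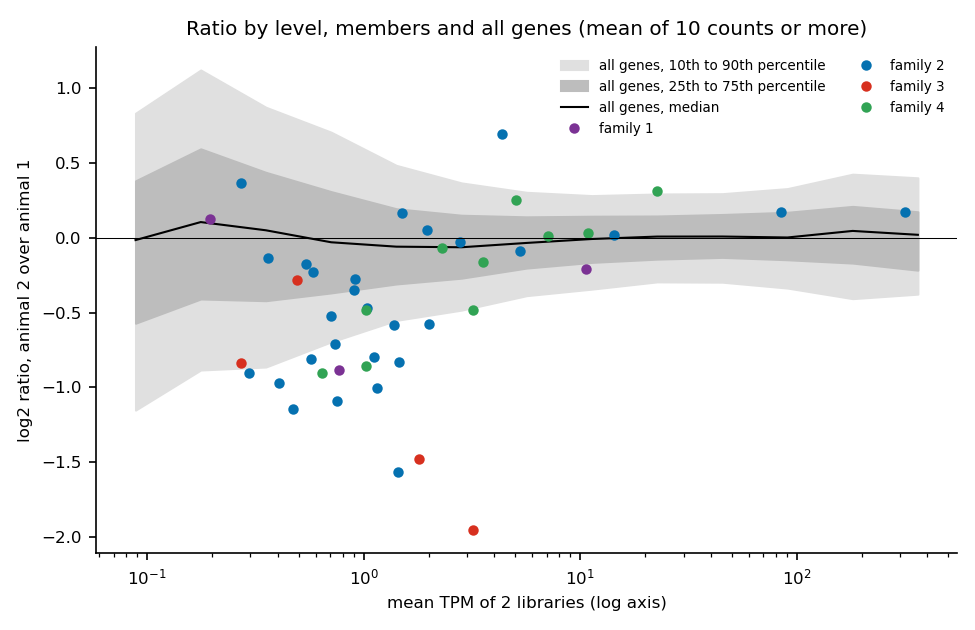
Log2 ratio of animal 2 over animal 1 against mean TPM (log axis) for the 45 members, coloured by family, over the 10th to 90th and 25th to 75th percentiles and the median of all genes in bins of level. Most members under 5 TPM lie below the median of all genes, with Cyp3a11 lowest at -1.96, and those at 10 TPM or more lie between -0.21 and 0.31.

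Markers of liver moved in the direction of these members. All 10 liver markers were detected in both libraries and higher in animal 1, by a median of 1.92-fold, with summed levels of 232 TPM in animal 1 and 143 TPM in animal 2. Alb, the serum albumin gene, was at 120.4 TPM in animal 1 and 80.6 TPM in animal 2. Kidney markers had a sum of 20.7 TPM in animal 1, against 0.50 TPM in animal 2, where 7 of the 10, Kap and Umod among them, were at 0 counts. Kap alone gave 16.5 TPM of the sum in animal 1, and Aqp2 did not differ beyond counting error, at 13 and 12 counts. Many members of families 2 and 3 are known from liver and kidney, and the part of these tissues in the members' difference was not tested.

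The remaining marker lists had smaller median ratios. Adrenal cortex markers were all detected, 4 higher in animal 1 and 6 in animal 2, with sums of 17865 and 20307 TPM. All 6 markers of the medulla were higher in animal 1, at 1823 TPM in animal 1 and 1490 TPM in animal 2. Adipocyte markers were higher in animal 2 for 7 of 9 and had a sum of 2671 TPM in animal 1, against 3219 TPM in animal 2. Stromal markers were higher in animal 1 for 3 of 8, mural for 1 of 5, endothelial for 1 of 7 and macrophage for 5 of 6. The median ratios of these last 4 lists lay between 1.12-fold higher in animal 2 and 1.19-fold higher in animal 1.

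The members lie in groups of neighbours of the kind that repeated gene duplication leaves. With a gap of at most 1000 kb between neighbours, a distance chosen after the data were seen, 66 of 75 members fell into 8 groups and 9 stood alone. In most groups 1 gene held the bulk of the level. On chromosome 7 (mm10) a group of 13 genes of the Cyp2a, 2b, 2f, 2g, 2s and 2t subfamilies runs from 25802475 to 27158668, and Cyp2f2, at 27119909 to 27133660, took 97.0% of its summed mean TPM. Its direct neighbours Cyp2a12 and Cyp2t4 were at 1.495 TPM and 0 TPM on average, so the level fell away on both sides. On chromosome 15, Cyp2d22 took 85.8% of a group of 8, and on chromosome 17 Cyp4f13 took 69.1% of a group of 8. Both Cyp2d22 and Cyp4f13 lie at an end of their group.

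On chromosome 4, Cyp4b1 took 83.8% of a group of 7 and Cyp2j6 62.9% of a group of 8. The Cyp2c group on chromosome 19, from 39007019 to 40187333, had no such leader. Cyp2c69 took 23.1% of its level, and all 9 of its members with a ratio were higher in animal 1, against 52.1% of all genes. In the Cyp3a group on chromosome 5, from 145345279 to 146113287, Cyp3a11 took 55.5%, and all 3 members with a ratio were higher in animal 1, again against 52.1% of all genes. In the chromosome 7 group, 4 of 8 members with a ratio were higher in animal 1, near the 52.1% of all genes. Cyp1a2 and Cyp1a1 lie side by side on chromosome 9.

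**Figure D4:**
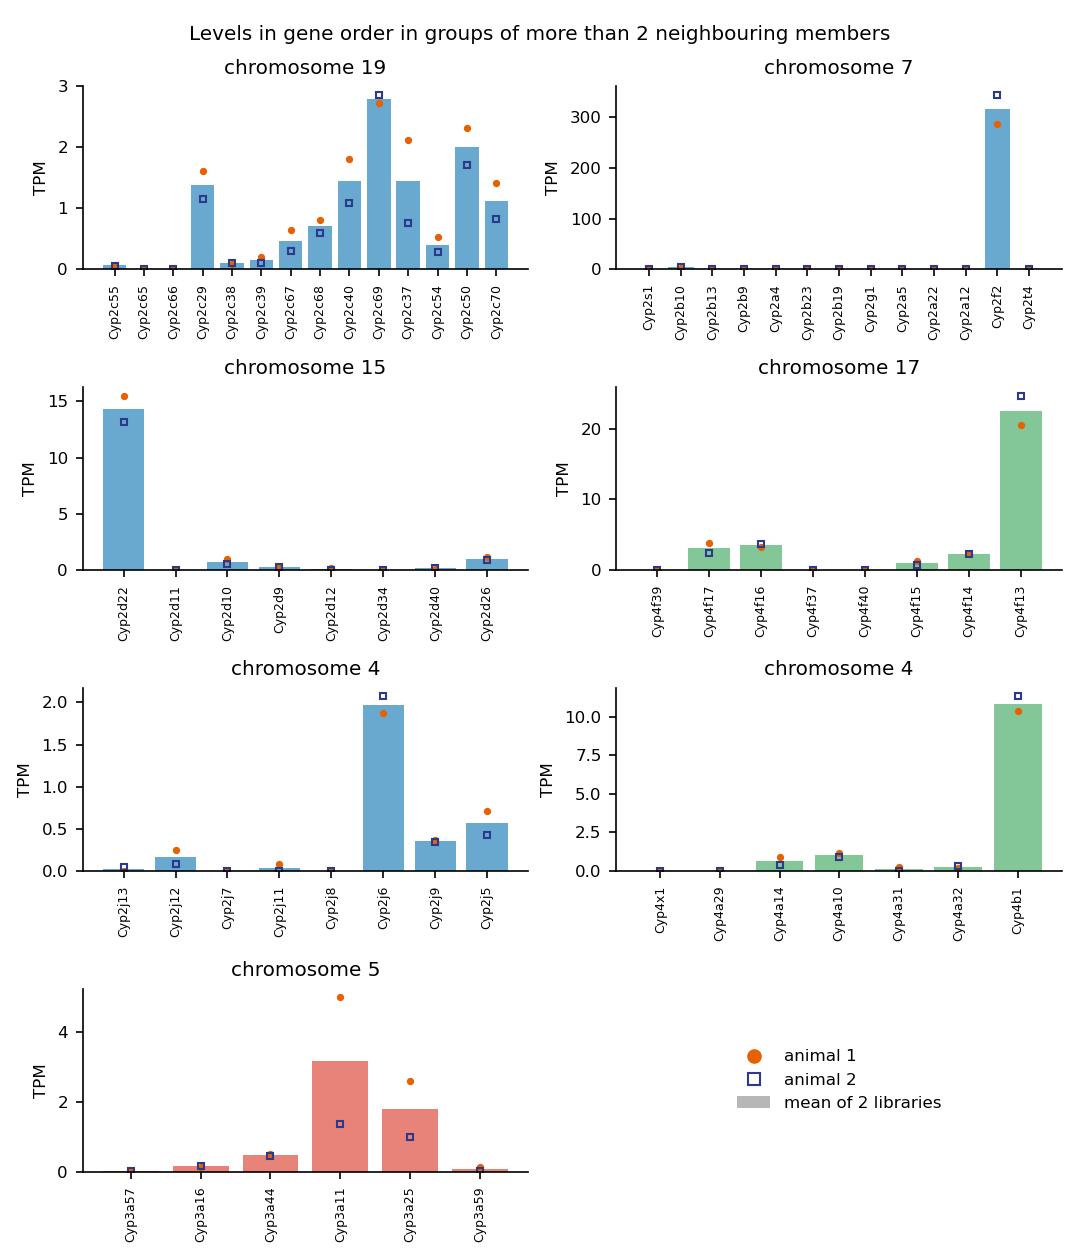
Mean TPM (bars from 0, coloured by family) and the TPM of animal 1 (filled circles) and animal 2 (open squares) for members in gene order, in the 7 groups of more than 2 neighbours, each panel on its own linear scale. Cyp2f2, Cyp2d22, Cyp4f13 and Cyp4b1 stand far above their neighbours, while the Cyp2c group on chromosome 19 holds several genes between 1 and 3 TPM.

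Upstream sequence was read from RefSeq promoter windows (GRCm38.p6), of which 62 members had at least 1 and some had more, 69 in all. The core of the aryl hydrocarbon receptor element, GCGTG, was searched on both strands in the 250 bases before the start site. It was present in 13 of the 69 windows, or 18.8%, against 28.2% of 32851 windows of all genes. The windows of Cyp1a1 and Cyp1b1 held it, at 54 and 76 bases before the start, as did those of Cyp2b10 and Cyp4v3, and that of Cyp1a2 did not. The motif AAGGTCA, bound by the adrenal regulator Nr5a1 and also by other nuclear receptors, was in 8 of 69 windows, or 11.6%, against 4.08% of all windows. The members with it were Cyp2f2, Cyp2c29, Cyp2c39, Cyp3a25, Cyp3a57, Cyp3a59 and Cyp4a29. For Cyp2c39 the match lay in a window at chr19:39347096-39347345, far before its GENCODE gene model, which starts at 39510862. The other Cyp2c39 window, at chr19:39510572-39510821, next to that start, held no match. Overlapping windows of Cyp3a25, starting at 146009618 and 146009619, were counted separately. They and the windows of Cyp3a57 and Cyp3a59 held 2 matches each in closely similar sequence, so these windows are not independent. Neither motif contains the other. Upstream bases of the highest member of family 2 and of the one detected member of family 1 are given 5′ to 3′ on the gene's strand, with the motif match in capitals. Cyp2f2 is shown from chr7:27119705-27119908, plus strand, ending where the GENCODE gene model starts, and Cyp1b1 from chr17:79715062-79715311, minus strand.
Cyp2f2: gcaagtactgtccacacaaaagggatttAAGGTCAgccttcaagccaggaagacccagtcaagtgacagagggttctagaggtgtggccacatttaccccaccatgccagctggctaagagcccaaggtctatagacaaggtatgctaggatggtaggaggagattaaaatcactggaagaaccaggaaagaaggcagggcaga
Cyp1b1: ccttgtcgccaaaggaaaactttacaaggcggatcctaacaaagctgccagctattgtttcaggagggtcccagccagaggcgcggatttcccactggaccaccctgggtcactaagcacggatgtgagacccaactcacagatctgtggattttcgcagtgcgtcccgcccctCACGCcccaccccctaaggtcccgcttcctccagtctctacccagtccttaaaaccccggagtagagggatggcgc
In Cyp1b1 the match is on the opposite strand and is read as the reverse complement. A match describes the letters only, and no binding was measured.

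Members of a subfamily can be so alike that reads fit several of them. The coding sequences of Cyp2a4 and Cyp2a5 shared 98.4% of bases and those of Cyp2c69 and Cyp2c67 97.7%. The 90-base stretch of each pair with the most differences is shown from the start codon's count, coding bases 580 to 669 for Cyp2a4 and Cyp2a5, and 208 to 297 for Cyp2c69 and Cyp2c67, with differing bases in capitals. These pairs were chosen after their values were seen.
Cyp2a4: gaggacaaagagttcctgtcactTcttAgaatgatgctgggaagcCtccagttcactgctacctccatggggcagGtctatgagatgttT
Cyp2a5: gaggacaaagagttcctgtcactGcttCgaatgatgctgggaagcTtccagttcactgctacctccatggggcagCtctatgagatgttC
Cyp2c69: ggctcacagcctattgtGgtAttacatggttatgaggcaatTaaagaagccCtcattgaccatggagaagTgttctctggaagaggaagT
Cyp2c67: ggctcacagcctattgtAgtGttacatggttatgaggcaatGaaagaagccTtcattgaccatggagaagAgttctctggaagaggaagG
Even here the Cyp2a pair differed at 5 bases and the Cyp2c pair at 6, and identical runs reached 216 and 230 bases elsewhere.

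Counts that were not whole, which occur where the authors' counting shared reads, were found for 27 of the 45 members with a ratio, or 60%, against 18.9% of all genes. All 19 members at 90% or more coding identity to another member had them, against 2 of 9 at 80 to 90% and 6 of 17 under 80%. The deposited posterior standard deviation of the count, a measure of this uncertainty, had a median of 2.13% of the count in the most alike class. It was highest for Cyp2c67 at 15.8%, Cyp2c68 at 10.2% and Cyp2c40 at 8.75%, and 0% for Cyp2f2 and Cyp1b1. Spearman's rho of identity with this percent was 0.720 across the 45 members, a description over genes of the same libraries. The highest level among the 19 alike members was 3.54 TPM, of Cyp4f16, and the percent was 0.119% or less in the 9 members above 5 TPM. Ratios of Cyp2c67 and its neighbours are uncertain for this reason. For Cyp2c67 the log2 ratio of animal 2 over animal 1 was -1.15 in the gene table and -0.39 in the second quantification.

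**Figure D5:**
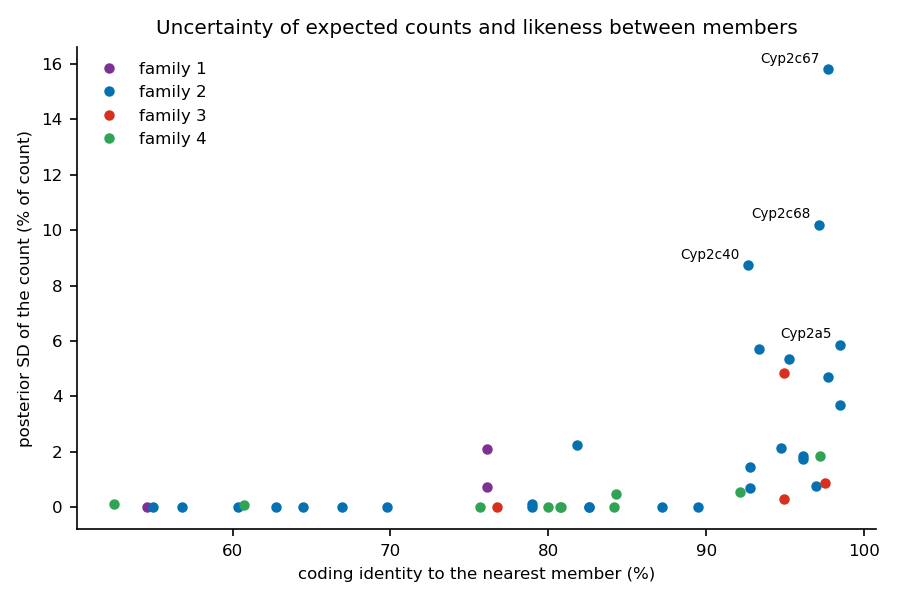
Posterior standard deviation of the expected count, as a percent of the count, against percent coding identity to the nearest other member, for the 45 members averaging 10 counts or more, coloured by family. Values stay at or below 2.12% (Cyp1a1) under 80% identity and reach 15.8% for Cyp2c67 above 90%.

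The second deposited quantification was rescaled so that its nuclear protein-coding genes sum as in the first. It put 39 of the 45 members with a ratio at a lower level than the first, with a median of 0.860 of it. The same share over all genes was not computed, so this cannot be read as particular to the members. Among members at 0.1 TPM or more the largest differences were those of Cyp2b13 at 0.486 of the first, Cyp2j12 at 0.660, Cyp4a14 at 0.672, Cyp4a32 at 0.695 and Cyp2a12 at 0.719. Cyp2b13, which shares 92.7% of coding bases with Cyp2b9, stood at 0.23 TPM in animal 1 and 0.31 TPM in animal 2, and its ratio changed direction between the quantifications, within counting error in the first. Cyp2j12 had 15 counts in animal 1 and 4 in animal 2, and Cyp4a32 9.18 and 9.16.

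Transcript use was read from the percent of a gene's TPM in its leading transcript, for the 18 members with at least 100 counts. The leading transcript was protein-coding in all 18, and in 7 it held 90% or more in both libraries. For Cyp2f2 it held 98.8% in animal 1 and 99.7% in animal 2, and for Cyp2e1 81.0% and 83.8%. Transcripts that do not code for protein took a large share in 2 Cyp4f genes and Cyp2d22. They held 52.7% of Cyp4f13 TPM in animal 1 and 44.9% in animal 2, 58.7% and 57.3% of Cyp4f16, and 42.2% and 20.5% of Cyp2d22. Short models with retained introns were among them, so the TPM of these genes is not all mRNA for the enzyme.

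The largest differences between the libraries in leading share were in Cyp2c50, from 60.3% in animal 1 to 93.1% in animal 2, and in Cyp4f14, from 39.8% to 72.1%. Next came Cyp2d22, at 57.8% and 79.5%, Cyp3a25, at 100% and 81.0%, and Cyp4f17, at 47.0% and 30.4%. For Cyp4f14 the direction turned in the second quantification, at 89.6% in animal 1 and 72.1% in animal 2. For the others it was the same there, but Cyp4f17's leading transcript held only 19.6% and 6.97%. These genes had 109 to 1071 mean counts, and no interval was available for the shares.

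Most genes that serve these enzymes were detected, while several that control them were low. Of 24 partner and regulator genes, chosen by function, 19 reached 1 TPM in both libraries, against 53.5% of nuclear protein-coding genes. Those that did not were the regulators Ahr, Hnf4a, Ahrr, Nr1i3 and Nr1i2. Ahr, the aryl hydrocarbon receptor gene, had 1.09 TPM in animal 1 and 0.84 TPM in animal 2. Of the 23 with a ratio 11 were higher in animal 1 and 12 in animal 2. Alas1, the first enzyme of heme synthesis, was highest at 789 TPM in animal 1 and 519 TPM in animal 2, 1.63-fold higher in animal 1 (1.60 to 1.66). The electron donors followed. Cyb5a, the microsomal cytochrome b5, had 168 TPM in animal 1 and 214 TPM in animal 2, and Cyb5b, its outer mitochondrial membrane form, had 152 and 171 TPM.

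Pgrmc1, a heme-binding P450 partner, had 155 TPM in animal 1 and 158 TPM in animal 2. Cyb5r3, the cytochrome b5 reductase, had 125 TPM in animal 1 and 148 TPM in animal 2. Por, the P450 reductase on which all members depend, had 102 TPM in animal 1 and 126 TPM in animal 2. Regulators had the lowest levels. The pregnane X receptor gene Nr1i2 had 0.14 and 0.07 TPM, and the aryl hydrocarbon receptor repressor Ahrr 0.40 and 0.28 TPM. The constitutive androstane receptor gene Nr1i3 had 0.52 TPM in animal 1 and 0.14 TPM in animal 2, from 33 and 12 counts. It was 2.71-fold higher in animal 1 (1.40 to 5.91). Cyp2b10, named above as its main liver target, was higher in animal 2, and a relation between these genes was not tested. Hnf4a, a hepatocyte regulator chosen after its values were seen, had 1.07 TPM in animal 1 and 0.39 in animal 2. Other regulators of the list, chosen in the same way, were higher in animal 2. Ppara had 4.85 TPM in animal 1 and 12.9 TPM in animal 2, and Nr1h4 had 4.71 and 7.04 TPM.

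The naming rule left out 6 protein-coding genes of families 1 to 4 whose symbols end in a letter or have a longer subfamily name. Cyp3a41a had 1.88 TPM in animal 1 and 1.58 TPM in animal 2, and Cyp3a41b had 0 and 0.38 TPM, from 0 and 24.5 counts. These are copies whose reads may be shared, so neither value is firm. Cyp2ab1, Cyp4a12a, Cyp4a12b and Cyp4a30b were at 0.21 TPM or less in both libraries. With these 6 genes the mean sum of families 1 to 4 was 0.156% of nuclear protein-coding TPM, against 0.155% without them.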

How the data were processed

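Total RNA of adrenal gland was measured in 2 libraries of 1 group, from 300 ng of RNA each, with ERCC spike-ins, per the labels' protocols. The authors deposited, per library, a gene table and a transcript table with expected counts, TPM and, for transcripts, the percent of the gene's TPM, with column names as RSEM writes them per the file headers, and a second transcript table of estimated counts and TPM, with column names as kallisto writes them. Gene tables also hold a posterior standard deviation of the count, used for read sharing, and TPM interval bounds, a deposited signal that is not reported here. Files used mm10 and GENCODE M21 per the deposited text listing them. Aligner, versions, settings and use of strand are not given in the sources used here, nor is whether reads of the CAST allele aligned as well as those of the reference strain, which was not tested. Members and gene lists were chosen with earlier results of these data known.

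Names were joined through the second transcript table, which lacks 86 annotated genes, and GENCODE M21. Named were all members at 1 TPM in both libraries, the 5 largest ratios in each direction, the 5 largest differences between quantifications and in leading transcript share, and partner genes at the 6 highest and 3 lowest levels; other names were chosen after their values were seen. The spike-in and number-only rows took part in no gene total. Expected counts, rounded for this step only, gave trimmed mean of M-values factors of 1.02 and 0.981 in edgeR 4.0.16 (R 4.3.3). Log2 ratios used a prior of 0.5 counts and a minimum mean of 10. Counts within 0.005 of an integer were taken as whole. DESeq2 1.42.0 gave size factors for an alternative. Coding identity came from global alignments in Biopython 1.88 and replaced protein identity, because no protein table was used. Cell type lists were 11. On simulated counts for the comparison of animal 2 with animal 1, intervals held the true ratio for 95.6% of 17060 unchanged genes, 95.2% of 100 genes changed 2-fold and 95.3% of 100 changed 4-fold, as means of 50 draws. These counts were drawn with counting error alone and known library totals, and the changed genes had at least 100 expected counts. The draws check the interval code only, as they hold no read sharing, PCR copies or spread between animals.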

Additional observations from a re-analysis of the deposited data

How the results depend on the processing

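The number of members detected, 21, was 28 in the second quantification, 49 at 0.1 TPM, 44 at 10 counts in both libraries and 38 with TPM over nuclear protein-coding genes, and leaving out either library gave 22 to 27. The summed share of 0.155% of nuclear protein-coding TPM was 0.0523% of all TPM, 0.142% of counts, 0.133% in the second quantification and 0.156% under the wider naming rule, and either library alone gave 0.155% to 0.156%. The median log2 ratio of -0.35 moved to -0.14 with spike-in scaling, -0.25 with ratios of TPM and -0.0074 in the 18 members with at least 100 counts, of which 9 were higher in animal 1. The 6 members over 2-fold higher in animal 1 became 3 with spike-in scaling, 2 at 100 counts and 16 at 1.5-fold, and the 0 toward animal 2 became 1 at 1.5-fold. The wider naming rule was not run for these 2-fold counts. It adds Cyp3a41b, which was over 2-fold higher in animal 2, from 0 counts in animal 1 and 24.5 in animal 2. With DESeq2 size factors 5 members were over 2-fold higher in animal 1, and the median and the 33 members higher in animal 1 stayed within the limits set. Of these, a prior of 2 counts was run for the median and the number higher in animal 1, and both stayed within them. Of 26 named members with a ratio, 18 kept it within its counting interval under spike-in scaling and 25 in the second quantification, and none with an interval that left out equality changed direction. With 2 libraries, leaving out 1 gives a value and no spread. Depth limits the 20 members with counts but a mean under 10, for which no ratio was given.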
